A study of Mus musculus with 104 samples.

Results

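The gene expression of primary mouse hepatocytes (PMH) transfected with the parent siRNA D4 at 1 nM was compared with that of mock-transfected PMH. The 4 libraries labelled as D4 at 1 nM and the 8 labelled as mock were chosen by their treatment labels, which makes 12 of the 104 libraries of the study. The study compared parent GalNAc-siRNAs, which carry a sugar ligand for the hepatocyte asialoglycoprotein receptor, with versions that hold a single glycol nucleic acid (GNA) nucleotide in the guide seed. D1 to D6 were each transfected at 0.1, 1, 10 or 50 nM with a lipid reagent, and total RNA was sequenced 24 hours later. D4 is the parent against Ttr, with a guide strand made of 2′-fluoro and 2′-O-methyl nucleotides and no GNA. D5 and D6 share its sequence and carry GNA-G and GNA-isoG, respectively, at guide position 6, counted from the 5′ end. D1 is the parent against another liver mRNA, Hao1. The cells were commercial mouse hepatocytes of unstated strain, sex and age, with no genetic change, and the label of the mock libraries names no siRNA. The labels do not say whether replicates were separate cultures or animals, so p-values measure only the spread between these libraries, which may be technical.

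Transthyretin, the protein made from Ttr, is secreted by hepatocytes and carries thyroxine and, bound to retinol-binding protein, vitamin A. An siRNA guide strand loaded into Argonaute 2 directs cleavage of mRNA that pairs with it along most of its length. Pairing through the seed alone, usually to a site in the 3′-UTR, gives the weaker repression known from microRNAs, by translational block and mRNA decay.

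A gene's level is given as log2 CPM, where CPM scales a gene's counts to the library's total of gene counts, and a difference as the log2 fold change of D4 at 1 nM over mock. A gene was called where the Benjamini-Hochberg adjusted p of edgeR's quasi-likelihood test was under 0.05 over all 11282 genes tested. The D4 libraries held 4446932 to 5316389 gene counts and the mock libraries 3409963 to 5308584. The cells carried their label: the hepatocyte markers other than Ttr summed to 19010 to 19210 CPM with D4 and to 16350 to 19190 CPM in mock. Of the macrophage markers 9 of 12 were at 0 in all 12 libraries, including Adgre1, Clec4f and Ptprc. The same held for 3 of 9 endothelial markers (Cdh5, Clec4g and Kdr) and 3 of 10 stellate cell markers (Pdgfrb, Des and Colec11). The endothelial markers summed to 11.01 to 14.37 CPM with D4 and 10.02 to 17.06 CPM in mock. The stellate cell markers summed to 15.67 to 24.04 CPM with D4 and 14.93 to 27.2 CPM in mock. In such bulk libraries, fewer cells of a type and less RNA per cell cannot be told apart.

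The target itself fell furthest. Ttr (ENSMUSG00000061808, on chromosome 18) had 12, 8, 27 and 6 counts in D4 replicates 1 to 4, against 2421 to 3558 counts in the mock libraries. Its level was 0.79 to 2.52 log2 CPM with D4 and had a lowest, median and highest value of 9.08, 9.40 and 9.50 log2 CPM in mock. All D4 libraries lay far below all mock libraries, and the log2 fold change was −7.90 (SE 0.18, adjusted p = 8.05e-12, edgeR), which leaves 0.417% of the mock level (95% confidence interval 0.318 to 0.547%). Replicate 3 kept the most Ttr, and without any single library the log2 fold change ran from −8.48 to −7.69. The housekeeping gene Gapdh gave −0.02 (adjusted p = 0.92). Hao1, the target of D1, whose 3′-UTR holds a mer7A1 match to the D4 seed (defined with the sequences that follow), gave −0.30 (adjusted p = 0.136). Hao1 was called without D4 replicate 3 (−0.41, adjusted p = 0.0445) and with the replicate number as a block (−0.38, adjusted p = 0.0405), and its mean level was 5.08 log2 CPM in mock and 4.89, 4.77, 4.31 and 4.29 log2 CPM with D4 at 0.1, 1, 10 and 50 nM.

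Beyond Ttr, the changes were small. Of the genes tested, 233 (2.07%) were called, 122 lower (1.08%) and 111 higher (0.984%), with a median log2 fold change of −0.36 among the lower genes and 0.38 among the higher ones. At an unadjusted p under 0.05 there were 1518 genes. The 4 D4 libraries all lay below the 8 mock libraries for 85 of the lower genes and all above them for 70 of the higher genes, where such separation held for 1.26% and 1.2% of all genes tested. Only 10 genes fell to 50% of mock or less, Ttr included, and 7 at least doubled. The count rested in part on D4 replicate 1: without it 140 genes were called, and over the 12 fits that each left out 1 library it ran from 140 to 296. In all 12 of these fits, 57 of the lower genes and 45 of the higher genes were called. The sum of the macrophage markers was 21.04 to 33.65 CPM with D4 and 16.27 to 23.39 CPM in mock, and its part in these differences was not tested.

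**Figure D1:**
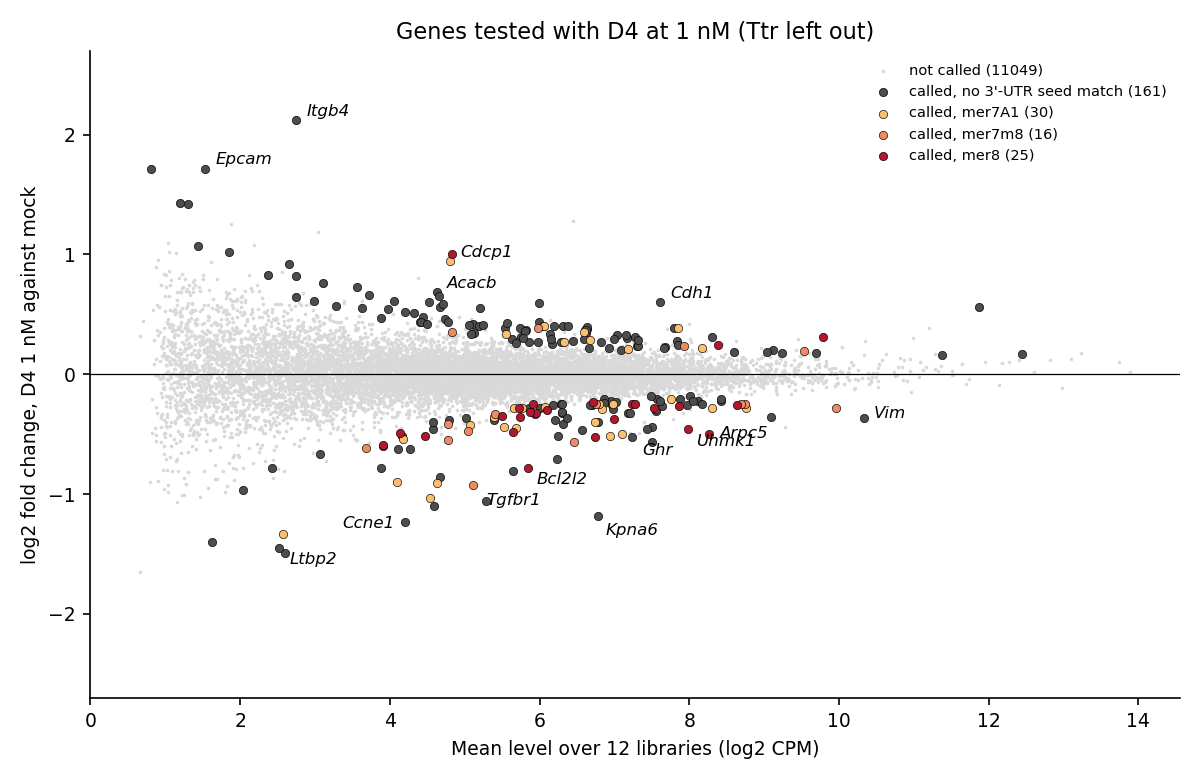
Mean level of each gene over the 12 libraries (log2 CPM, horizontal axis) against its log2 fold change, D4 at 1 nM over mock (vertical axis), with called genes coloured by their seed match to the guide strand; Ttr, at −7.90, is left out. Of the called genes with a seed match, 55 lie below 0 and 16 above it, while most of the 11049 genes that were not called lie close to 0.

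Sequences that carry these results are shown next. The seed of a guide strand is positions 2 to 8, and 3 kinds of match to it in a 3′-UTR were distinguished. On the mRNA the mer7m8 match to the D4 guide reads CTCTATA, the mer8 match is the same followed by A (CTCTATAA), and the mer7A1 match drops the first base (TCTATAA). Each gene was put in the class of its strongest match, so mer8 genes do not count again as mer7m8 or mer7A1, and only the sense strand of the 3′-UTR was searched. In the longest annotated 3′-UTR of 20969 mouse genes (GENCODE, GRCm39), mer8 was found in 3.05%, mer7m8 as the strongest match in 6.11% and mer7A1 in 9.29%. The following sites lie in the 3′-UTRs of genes called lower, with the seed match in capitals and written 5′ to 3′ as on the mRNA, in DNA letters, and they show what surrounds the same 7 or 8 bases in different targets.
Bcl2l2, mer8, chr14:55125546-55125569, + strand: agaaaaagCTCTATAAatataaat
Uhmk1, mer8, chr1:170026696-170026719, − strand: ctaacacaCTCTATAAccatttct
Arpc5, mer8, chr1:152651226-152651249, + strand: cgcagaaaCTCTATAAactgctgt
Igf2bp3, mer8, chr6:49063956-49063979, − strand: taatatccCTCTATAAtgccagaa
Otud4, mer8, chr8:80401530-80401553, + strand: ataggcttCTCTATAAaagagtgt
Xiap, mer8, chrX:41198447-41198470, + strand: gctttctgCTCTATAAtctgtcat
Tgfbr1, mer7m8, chr4:47411234-47411256, + strand: actttaaaCTCTATAgtctaaaa

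The share of genes called lower was higher with a guide seed match than without one, a description of counts over genes, which are not replicates. Of the 330 tested genes with a mer8 match 22 (6.67%) were called lower and 3 (0.909%) higher. The shares called lower were 1.68% of 715 mer7m8 genes and 1.88% of 1119 mer7A1 genes, and 0.776% of the 8509 genes with no match, beside 1.13% of all genes with a 3′-UTR apart from Ttr. Put the other way, 55 of the 121 lower genes with a 3′-UTR (45.5%) held a match of some kind, as did 20.3% of the tested genes and 16 of 106 higher genes (15.1%).

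The shift of whole classes was small. The median log2 fold change was −0.0369 for mer8 genes, −0.016 for mer7m8, −0.0185 for mer7A1 and 0.0002 for genes without a match, with −0.0028 over all genes tested apart from Ttr. The median of mer8 minus unmatched genes was −0.037 with edgeR and −0.0051 with DESeq2 and a beta prior, which shrinks fold changes toward 0. By library, the median of mer8 genes minus that of unmatched genes ran from −0.0722 to −0.0085 in the 4 D4 libraries and from −0.0277 to 0.0303 in the 8 mock libraries, each library taken against the mock mean. The 2 ranges overlap, so at 1 nM the class median did not set every D4 library apart from mock, although single mer8 genes did. Genes with a match also had longer 3′-UTRs, with a median of 3352.5 bases for mer8 and 1661 bases for no match.

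Matches to the seed of the passenger strand, the other strand of the duplex, went with smaller differences in the share of genes called lower. With ACACTGTA (mer8) in the 3′-UTR 1.4% of 857 genes were called lower, with ACACTGT (mer7m8) 1.32% of 1667 and with CACTGTA (mer7A1) 1.02% of 984, against 1.07% of 7165 genes with none. The median 3′-UTR of the passenger mer8 genes was 3290 bases, close to that of the guide mer8 genes. The part of 3′-UTR length in the shares called was not tested. A guide seed match in the coding sequence alone went with 0.921% of 760 genes called lower.

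**Figure D2:**
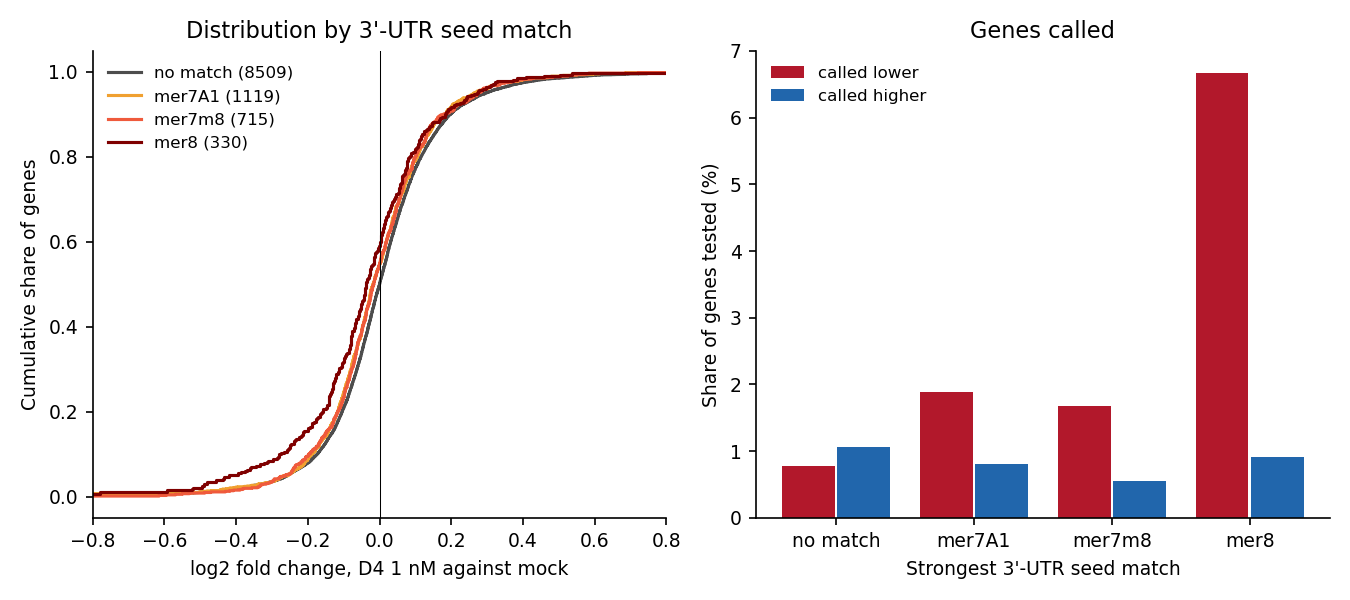
Left, cumulative share of genes against the log2 fold change of D4 at 1 nM over mock, with 1 line per seed class of the guide strand; right, percent of the genes in each class called lower or higher. The lines nearly coincide, with the mer8 line to the left at its lower end, while 6.67% of mer8 genes and 0.776% of genes with no match were called lower.

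The mer8 genes with the smallest p included regulators of cell survival, the cytoskeleton and RNA. Bcl2l2 (ENSMUSG00000089682) encodes the anti-apoptotic protein BCL-w. Its level was 5.32, 5.22, 5.45 and 5.35 log2 CPM in D4 replicates 1 to 4, and 5.95, 6.14 and 6.23 log2 CPM at the lowest, median and highest in mock. The groups did not overlap, and the log2 fold change was −0.78 (SE 0.08, adjusted p = 1.60e-09, edgeR). Uhmk1, a nuclear serine/threonine kinase, stood at 7.67, 7.67, 7.72 and 7.65 log2 CPM with D4 and at 8.02, 8.16 and 8.18 log2 CPM in mock. Every D4 library lay below mock, with a change of −0.46 (SE 0.05, adjusted p = 2.05e-08). Arpc5, a subunit of the actin-nucleating Arp2/3 complex, stood at 7.95, 7.93, 7.86 and 8.02 log2 CPM with D4 and at 8.28, 8.41 and 8.58 log2 CPM in mock, a change of −0.50 (SE 0.06, adjusted p = 4.46e-08).

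Igf2bp3, an RNA-binding protein of growth-associated mRNAs, held 2 mer8 sites. It measured 5.35, 5.33, 5.19 and 5.41 log2 CPM with D4 and 5.73, 5.80 and 5.87 log2 CPM in mock, again without overlap (−0.48, SE 0.07, adjusted p = 3.43e-05, edgeR). Otud4, a deubiquitinase, measured 6.72, 6.85, 6.70 and 6.72 log2 CPM with D4 and 6.97, 7.14 and 7.24 log2 CPM in mock (−0.37, SE 0.06, adjusted p = 7.87e-05). The remaining genes named by the same rule changed less. Csnk1a1, which encodes casein kinase 1 alpha, changed by −0.27 (adjusted p = 1.19e-03), the caspase inhibitor Xiap by −0.28 (adjusted p = 2.33e-03) and C77080 by −0.26 (adjusted p = 1.57e-03). The D4 and mock libraries did not overlap for any of these 8 genes, and all 8 were called in each fit without 1 library. The match of Csnk1a1 was not in the 3′-UTR of its canonical transcript.

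A second feature of the sequences, which was singled out after the values of these genes had been seen and is given with no test, was a long unbroken stretch of pairing to the guide anywhere in the annotated transcript. Of 133 tested genes other than Ttr with 12 or more contiguous paired bases, 8 (6.02%) were called lower and 1 higher, against 1.01% of 11148 genes with shorter stretches or none. All 8 lay among the 64 genes whose stretch began at guide position 7 or lower (12.5%). That position is the highest start among these 8 genes, so none of them could lie beyond it and the split does not test position. None of the 69 genes whose stretch began at position 8 or higher was called by edgeR or by DESeq2, with 8 at an unadjusted p under 0.05. Below, the paired bases of 7 of the 8 genes are in capitals, written 5′ to 3′ as on the transcript, so that the 3′ end of each stretch lies toward the seed of the guide.
Kpna6, 3′-UTR, guide positions 5 to 18, chr4:129541277-129541299, − strand: aacaaAGTGTTCTTGCTCTgacc
Clic1, coding sequence, guide positions 3 to 15, chr17:35271794-35271816, + strand: cagctgccGTTCTTGCTCTATgg
Arpc5, 3′-UTR, guide positions 2 to 13, chr1:152650702-152650724, + strand: gagcaaggagTCTTGCTCTATAt
Bcl2l2, 3′-UTR, guide positions 5 to 16, chr14:55125352-55125374, + strand: gagaggaTGTTCTTGCTCTccaa
Cct2, coding sequence, guide positions 6 to 17, chr10:116891043-116891065, − strand: ctctttGTGTTCTTGCTCagact
Otud4, 3′-UTR, guide positions 7 to 19, chr8:80403182-80403204, + strand: ctttCAGTGTTCTTGCTgttcaa
Cnot6, 3′-UTR, guide positions 7 to 19, chr11:49563335-49563357, − strand: atttCAGTGTTCTTGCTgataag

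Kpna6 (ENSMUSG00000003731), an importin alpha that carries proteins into the nucleus, had the smallest adjusted p of all genes. It stood at 5.84, 5.93, 6.12 and 6.07 log2 CPM in D4 replicates 1 to 4, while mock ran from 7.03 over a median of 7.17 to 7.29 log2 CPM. No seed match was found in its 3′-UTR, the 14-base stretch was the longest among the 8 genes, and the log2 fold change was −1.18 (SE 0.07, adjusted p = 1.10e-16, edgeR). Of the 12 genes other than Ttr with 14 or more paired bases, Kpna6 alone was called. Eif2d, with 14 bases at the same guide positions, was at 0.10, and Alg6, with 16 bases from position 7, was at 0.24. The stretches of Eif2d and Alg6 were found only outside the canonical transcript, while that of Kpna6 lies in it. Clic1, an intracellular chloride channel protein, stood at 7.18, 7.04, 7.13 and 7.19 log2 CPM with D4 and at 7.58, 7.69 and 7.80 log2 CPM in mock (−0.56, SE 0.05, adjusted p = 1.55e-09). Its 13-base stretch lies in the coding sequence.

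Cct2, a subunit of the TRiC chaperonin, stood at 8.83, 8.86, 8.81 and 8.91 log2 CPM with D4 and at 9.13, 9.22 and 9.26 log2 CPM in mock. Its change was −0.35 (SE 0.04, adjusted p = 7.78e-07, edgeR), also without overlap. Cnot6, a deadenylase of the CCR4-NOT complex that shortens mRNA tails, stood at 7.02, 6.91, 7.03 and 7.01 log2 CPM with D4 and at 7.20, 7.33 and 7.38 log2 CPM in mock (−0.33, SE 0.05, adjusted p = 1.19e-04). The remaining gene, Nox4, had its 12-base stretch only in a non-coding transcript. The gene with a long stretch that was called higher was Ephx1, at 0.24 (adjusted p = 8.92e-03).

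The 12 largest decreases, Ttr included, were taken from called genes whose groups did not overlap and whose higher group had a mean of at least 2 log2 CPM. This rule leaves out Hsd3b2 (−1.40, adjusted p = 0.0218, edgeR), which was also called lower. After Ttr, 3 genes of low counts changed most among the 12. Elmod1, a regulator of Arf-family GTPases, stood at 2.25, 2.18, 1.13 and 0.96 log2 CPM with D4 and at 2.33, 3.20 and 3.51 log2 CPM in mock (−1.49, SE 0.28, adjusted p = 2.30e-03, edgeR), and its groups lay close at their nearest libraries. Ltbp2, a latent TGF-β binding protein of the matrix, stood at 1.32, 1.67, 1.99 and 1.60 log2 CPM with D4 and at 2.12, 3.05 and 3.39 log2 CPM in mock (−1.45, SE 0.24, adjusted p = 1.19e-04). Igfbp7, a secreted binding protein for insulin-like growth factors, stood at 1.78, 1.77, 2.12 and 1.25 log2 CPM with D4 and at 2.79, 3.01 and 3.19 log2 CPM in mock (−1.33, SE 0.21, adjusted p = 7.56e-05). DESeq2 gave no adjusted p for these 3 genes of low counts.

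Ccne1 (ENSMUSG00000002068) encodes cyclin E1, which drives entry into S phase with CDK2. It stood at 3.30, 3.60, 3.59 and 3.08 log2 CPM with D4 and at 4.36, 4.63 and 4.77 log2 CPM in mock, and changed by −1.23 (SE 0.13, adjusted p = 8.61e-09, edgeR) with no seed match in its 3′-UTR. Tgfbr1, the type I TGF-β receptor, stood at 4.41, 4.75, 4.46 and 4.41 log2 CPM with D4 and at 5.16, 5.42 and 5.65 log2 CPM in mock (−0.92, SE 0.11, adjusted p = 1.26e-07). Replicate 2 was the highest D4 library for Tgfbr1, still below every mock library. The 12 also included Tstd3, at −1.03 (adjusted p = 4.04e-07), the receptor tyrosine kinase Axl, at −0.90 (adjusted p = 3.92e-06), and Btbd10, at −0.90 (adjusted p = 9.07e-06), each with a mer7A1 match in its longest 3′-UTR.

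Lox, which crosslinks collagen, changed by −1.10 (adjusted p = 0.0176, edgeR) and Nox4, an NADPH oxidase that makes hydrogen peroxide, by −1.06 (adjusted p = 0.0261). The D4 libraries lay below mock for both, but the calls hung on single libraries. Lox was not called without D4 replicate 1 (adjusted p = 0.0758) or 4 (adjusted p = 0.0531). Nox4 was not called without any 1 of the D4 libraries or without mock replicate 3 or 8 (adjusted p up to 0.099).

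The 12 largest increases were chosen by the same rule, which leaves out Usp43 (1.71) and Cnksr1 (1.43), below that level and noted after their values were seen. Itgb4 (ENSMUSG00000020758), the integrin β4 chain of hemidesmosomes, had 103, 69, 91 and 63 counts with D4 and 12 to 21 counts in the mock libraries. Its level was 4.31, 4.02, 4.20 and 3.82 log2 CPM with D4 and 1.46, 2.17 and 2.60 log2 CPM in mock, so that all D4 libraries lay above mock, and it rose by 2.12 (SE 0.18, adjusted p = 2.47e-11, edgeR). Epcam, an epithelial adhesion molecule of cholangiocytes and progenitor cells, stood at 2.77, 2.45, 2.98 and 2.26 log2 CPM with D4 and at 0.02, 1.06 and 1.69 log2 CPM in mock (1.72, SE 0.27, adjusted p = 6.86e-05), on 20 to 38 counts with D4 and 2 to 15 in mock.

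Cdcp1, a transmembrane substrate of Src kinases, stood at 5.54, 5.49, 5.31 and 5.38 log2 CPM with D4 and at 4.35, 4.49 and 4.69 log2 CPM in mock (0.94, SE 0.09, adjusted p = 1.25e-09, edgeR). Cdh1, E-cadherin of adherens junctions, stood at 8.11, 8.15, 7.90 and 7.87 log2 CPM with D4 and at 7.30, 7.40 and 7.61 log2 CPM in mock (0.60, SE 0.06, adjusted p = 1.55e-09). Neither gene's D4 libraries overlapped mock. Of the 8 cholangiocyte markers 5 could be tested and only Epcam was called, with Krt7 at 0.46 and Krt19 at 0.11, and the markers summed to 157.4 to 191.6 CPM with D4 and 151.6 to 177.4 CPM in mock. The part of this cell type in the result for Epcam was not tested.

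Acacb, the mitochondrial acetyl-CoA carboxylase whose product malonyl-CoA restrains fatty acid oxidation, stood at 4.79, 5.21, 5.14 and 5.18 log2 CPM with D4 and at 4.03, 4.41 and 4.70 log2 CPM in mock (0.69, SE 0.12, adjusted p = 2.53e-04, edgeR). Sema4d, a transmembrane semaphorin, rose by 0.60 (adjusted p = 1.61e-04), and Rab11fip4, an effector of the recycling GTPase Rab11, by 1.43 (adjusted p = 2.33e-03). Mean levels of Sema4d were 4.32 log2 CPM in mock and 4.72 with D4 at 0.1 nM. With D1, D5 and D6 at 1 nM they were 4.61, 4.73 and 4.91. For Acacb the means were 4.39, 4.79, 4.62, 4.79 and 5.16 log2 CPM, in the same order. In direct comparisons of D4 at 1 nM with these siRNA groups, Sema4d was not called. Acacb was called only against D1 (0.46, adjusted p = 0.0196, edgeR). A further 4 of the largest increases were less stable. The RNA Snhg11 gave 0.73 (adjusted p = 0.0120), and was not called without D4 replicate 4 (0.65, adjusted p = 0.0742). Xirp2 gave 1.0 (adjusted p = 0.0392), Psrc1 0.61 (adjusted p = 0.0293) and Ltbp3 0.65 (adjusted p = 0.0420), and they were called in 4, 7 and 4 of the 12 fits without 1 library. Mean levels of Xirp2 were 4.50 log2 CPM in mock and 5.07 with D4 at 0.1 nM. With D1, D5 and D6 at 1 nM they were 5.28, 4.89 and 4.88. For Ltbp3 the means were 2.52, 2.82, 2.77, 3.03 and 3.01 log2 CPM, in the same order. Neither gene was called in direct comparisons of D4 at 1 nM with these siRNA groups. With p adjusted over the D5, D6 and D1 comparisons together, Xirp2 was called against D5 and D6 (each adjusted p = 0.036, edgeR).

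**Figure D3:**
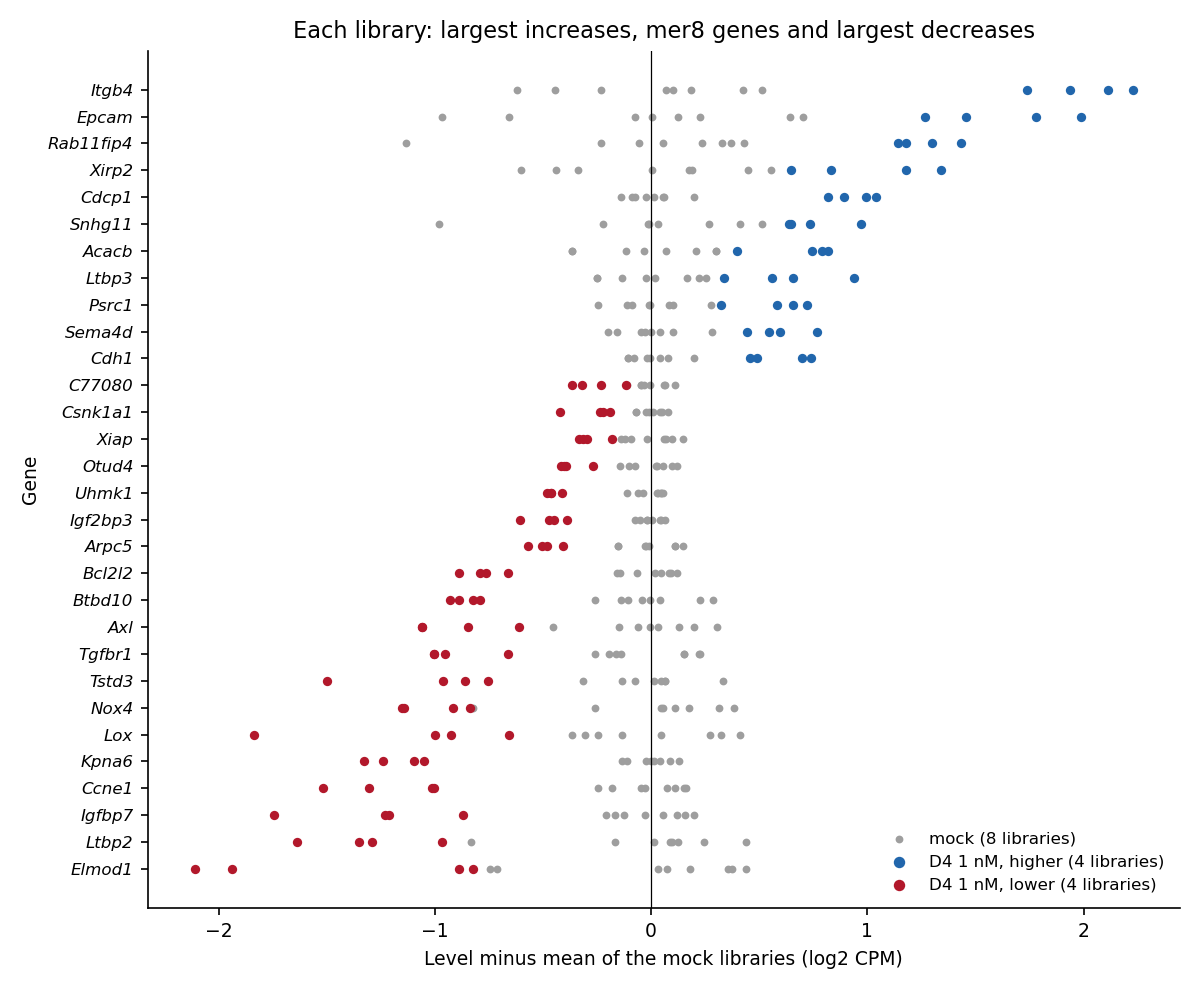
Log2 CPM of each library minus the mean of the 8 mock libraries (horizontal axis) for 11 of the largest increases, the 8 named mer8 genes and the 11 largest decreases other than Ttr, with D4 at 1 nM and mock as separate points. For Kpna6, Itgb4 and Cdh1 the 4 D4 points stand clear of the mock points, while for Elmod1 and Nox4 the nearest points almost touch.

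Among 28 gene lists of liver function, signalling and stress, 14 held a called gene and 14 did not, and no list had more than 3 called members in either direction. The list medians ran from −0.0895 to 0.1264 on the log2 scale. The share of all genes called was 2.07%, and the members below are given as counts beside it, with no test of a list.

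In the cell cycle list 3 of 31 tested genes were called lower and none higher, with a median of −0.0895. Besides Ccne1, its paralog Ccne2 stood at 3.81, 3.70, 3.89 and 4.14 log2 CPM with D4 and at 4.01, 4.47 and 4.83 log2 CPM in mock, with overlap (−0.62, adjusted p = 5.97e-03, edgeR). Ccnd3, a D-type cyclin, changed by −0.33 (adjusted p = 3.67e-03), a call that ended without D4 replicate 1 (−0.29, adjusted p = 0.0536). The S and M phase genes Mki67 (−0.01), Top2a (0.06) and Ccnb1 (−0.09) were not called, and neither were Ccnd1 (−0.03) and Cdk4 (0.05).

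In the insulin, growth factor and MAPK list 3 of 38 tested genes were called lower, with a median of 0.0183. Ghr, the growth hormone receptor, stood at 6.98, 7.04, 6.61 and 6.93 log2 CPM with D4 and at 7.24, 7.42 and 7.61 log2 CPM in mock (−0.52, SE 0.07, adjusted p = 2.51e-05, edgeR). Igf1, the hormone that liver makes in response to growth hormone, stood at 7.35, 7.36, 7.30 and 7.44 log2 CPM with D4 and at 7.50, 7.65 and 7.83 log2 CPM in mock (−0.30, SE 0.06, adjusted p = 4.95e-04). Both were lower in every D4 library than in any mock library. With D1 at 1 nM Ghr was also below mock, at 7.07 to 7.18 against 7.23 to 7.62 log2 CPM on a common scale. D4 minus D1 at 1 nM was −0.21 for Ghr (adjusted p = 0.0808, edgeR), not called. For Igf1 it was −0.21 (adjusted p = 0.0240), called. Foxo3, a transcription factor with a mer8 match, gave −0.25 (adjusted p = 0.0480) and was called in 2 of 12 fits without 1 library. Insr (0.12), Irs1 (0.11) and Akt1 (0.02) were not called.

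The 2 called genes among 23 apoptosis regulators were Bcl2l2 and Xiap, both lower and both with a mer8 match, while Bcl2l1 (−0.08), Mcl1 (−0.02) and Bax (−0.20) were not called. In the TGF-β and Wnt list of 25 genes, Tgfbr1 fell and the Wnt co-receptor Lrp6 gave 0.20 (adjusted p = 0.0495, edgeR; called in 2 of 12 fits without 1 library), with Tgfbr2 at 0.02 and Smad3 at 0.09. In the cytoskeleton, matrix and adhesion list of 33 genes Cdh1 rose, and Vim, the intermediate filament vimentin, gave −0.36 (adjusted p = 0.0318; called in 7 of the 12 fits). The hepatocyte keratins Krt8 and Krt18, each at 0.12, were not called.

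Metabolic lists held few called genes. Of 26 genes of fatty acid and triglyceride synthesis Acacb and Lpin2, a phosphatidate phosphatase, were called higher, the latter at 0.19 (adjusted p = 0.0256, edgeR; called in 6 of the 12 fits), with a list median of 0.1137. Fasn (0.05), Scd1 (0.10) and Srebf1 (0.21) were not called. Of 40 genes of cytochrome P450 and conjugation, Cyp2c70, a bile acid hydroxylase of mice, stood at 6.74, 6.67, 6.79 and 6.87 log2 CPM with D4 and at 7.06, 7.28 and 7.44 log2 CPM in mock (−0.50, SE 0.06, adjusted p = 8.29e-07). Cyp3a13 rose by 0.28 (adjusted p = 8.14e-03) and Ephx1, an epoxide hydrolase, by 0.24, and these calls ended without D4 replicate 2 (adjusted p = 0.0597) and D4 replicate 4 (adjusted p = 0.0516), respectively. Both Cyp genes belong to families of close paralogs, where reads can be hard to assign. Among 33 genes of the urea cycle and amino acid catabolism Cth, a cystathionine lyase, was called lower (−0.28, adjusted p = 0.0401; 5 of the 12 fits).

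The lists of acute phase, coagulation, lysosome and p53 genes held 2 called genes each and the NRF2 list held 1. Steap4, a metalloreductase induced in inflammation, stood at 4.75, 5.11, 5.21 and 5.28 log2 CPM with D4 and at 4.22, 4.52 and 4.83 log2 CPM in mock (0.59, SE 0.11, adjusted p = 7.88e-04, edgeR), and fibrinogen gamma, Fgg, changed by −0.26 (adjusted p = 5.94e-03; not called without D4 replicate 1, adjusted p = 0.0508), among 21 acute phase genes. Of 23 coagulation genes F5 (0.37, adjusted p = 0.0390) and Cpb2 (0.30, adjusted p = 0.0242) were called higher, as were Ctsd (0.21, adjusted p = 0.0287) and Ctsz (0.18, adjusted p = 0.0429), both lysosomal proteases, of 31 lysosome genes. Of 22 p53 targets Btg2 (0.27, adjusted p = 0.0189) and Plk2 (0.23, adjusted p = 0.0269) were called higher, with Cdkn1a at 0.02 and Mdm2 at 0.07, and of 25 NRF2 genes Gclc, the catalytic subunit of glutathione synthesis, at 0.31 (adjusted p = 0.0142). These 7 were called in 5, 8, 6, 4, 9, 7 and 9 of the 12 fits without 1 library, in the order given. None of the 7 was called in D4 at 1 nM compared directly with D4 at 0.1 nM or with D5 or D6 at 1 nM. Against D1 at 1 nM, Cpb2 (0.32), Btg2 (0.23) and Gclc (0.26) were called higher and the others were not. Mean levels of F5 were 6.48 log2 CPM in mock and 6.80 with D4 at 0.1 nM. With D1, D5 and D6 at 1 nM they were 6.70, 6.72 and 6.72.

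In the remaining 14 lists no gene was called. Of 42 interferon response genes none passed edgeR's adjusted threshold or DESeq2's and 4 had an unadjusted p under 0.05, with log2 fold changes from −0.50 to 1.28. Ifit3 (1.19, adjusted p = 0.571), Cxcl10 (1.25, adjusted p = 0.55) and Rsad2 (1.28, adjusted p = 0.405) were the highest of these and Isg15 stood at −0.39. The 13 genes of the RNAi machinery held 1 unadjusted p under 0.05, no call by either tool, and Ago2 at −0.06. Of 8 genes of retinol and thyroid hormone transport Ttr alone was called, and Rbp4, the partner of transthyretin in the blood, was at 0.03.

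The unfolded protein and integrated stress response (34 genes; 7 at an unadjusted p under 0.05, 1 called by DESeq2), bile acids (13; 2 and 1), complement (19; 3 and 1) and nuclear receptors and liver transcription factors (34; 3 and 1) gave no call by edgeR. Cholesterol synthesis (25; 4 and 0), fatty acid oxidation (28; 2 and 0), lipoproteins (19; 1 and 0), gluconeogenesis and glycolysis (27; 4 and 0), NF-κB (16; 1 and 0) and the circadian clock (15; 2 and 0) gave none either. Cytosolic ribosomal proteins (80; 0 and 0) had a median of −0.039 with 65 of 80 below 0, and respiratory chain subunits (76; 3 and 0) a median of −0.035.

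**Figure D4:**
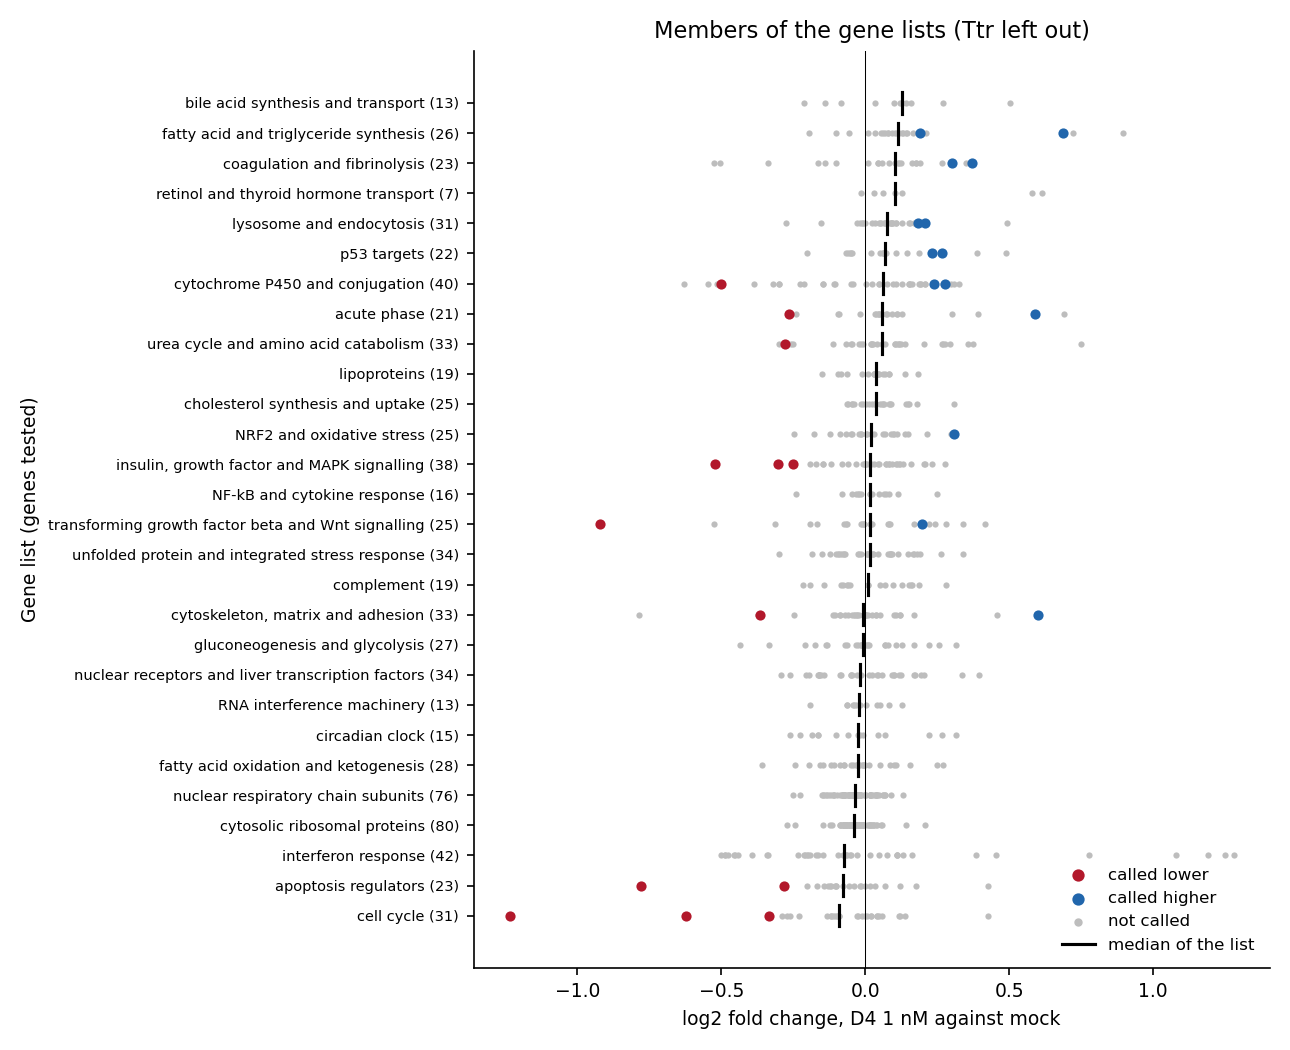
Log2 fold change of D4 at 1 nM over mock (horizontal axis) for every tested member of the 28 gene lists (rows), with called genes marked and a line at each list's median; Ttr is left out. The medians lie between −0.0895 and 0.1264, with at most 3 called genes in one direction in a list.

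The dose series of D4 places 1 nM as the lowest dose at which genes other than Ttr were called. Against the same 8 mock libraries 1 gene was called at 0.1 nM (0.00886% of 11293 tested), which was Ttr at −7.33, then 233 at 1 nM, 3019 at 10 nM (26.6%) and 3921 at 50 nM (34.6%). These comparisons share the mock libraries, and the values that follow are set side by side for that reason. From 0.1 over 1 and 10 to 50 nM, Kpna6 stood at −0.21, −1.18, −2.79 and −2.53 against mock. Uhmk1 stood at −0.01, −0.46, −2.06 and −2.27, and Itgb4 at 0.10, 2.12, 4.30 and 4.34. Ghr was at −0.07, −0.52, −1.41 and −1.42 and Cdh1 at 0.22, 0.60, 1.15 and 1.27. Ccne1, at −0.50, −1.23, −1.98 and −2.25, and Bcl2l2, at −0.31, −0.78, −1.56 and −1.68, were the furthest from 0 at 0.1 nM among these 7 genes, where neither was called (adjusted p = 0.246 and 0.202).

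Compared directly with D4 at 0.1 nM, 1 nM gave 48 called genes of 11130 (0.431%), 35 lower (0.314%) and 13 higher (0.117%), and 18 of the lower genes and 2 of the higher ones held a seed match, beside 20.3% of the genes tested against mock. Of these 35 lower genes 33 were also lower against mock, in a comparison with the same D4 libraries at 1 nM. The difference was −0.97 (SE 0.08, adjusted p = 8.23e-11, edgeR) for Kpna6, −0.75 (SE 0.12, adjusted p = 1.97e-04) for Tgfbr1 and −0.44 (SE 0.06, adjusted p = 4.49e-05) for Uhmk1. For Ttr it was −0.58 (95% interval −1.28 to 0.11, adjusted p = 0.937), while 10 nM against 0.1 nM gave −1.43 for Ttr (adjusted p = 7.63e-03). Leaving out D4 at 0.1 nM replicate 1 gave 18 called genes, and over all fits without 1 library the count ran from 18 to 54.

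The siRNAs of the same sequence with a GNA nucleotide at guide position 6 gave the comparison at a matched dose and time. At 1 nM against mock, 5 genes were called with D5 (0.0444% of 11258), 240 with D6 (2.13%), 233 with D4 (2.07%) and 71 with the Hao1 siRNA D1 (0.632%). With D5 these were Ttr at −8.46, Otud4 at −0.59 (adjusted p = 1.03e-04, edgeR), Cnot6 at −0.45 (adjusted p = 2.61e-05), Col4a2 at 0.35 and Slc4a11 at 0.37. Without 1 library the count with D5 ran from 3 (without D5 replicate 1) to 7 (without D5 replicate 2), that with D6 from 111 to 342 and that with D1 from 37 to 84. The libraries that moved these by over 1.5 times were D6 replicates 2 (125) and 4 (111) and mock replicate 7 (141) for D6, and D1 replicates 1 (37) and 4 (45) for D1. D5 replicate 2 differed most from its group and had 1.10% of counts from ERCC spike-ins, against 0.425 to 0.707% in the other D5 libraries. The long stretches of Otud4 and Cnot6 shown earlier begin at guide position 7, while the mer8 site of Otud4 takes in position 6. The stretches of the other 6 genes include position 6, and none of these genes was called with D5 at 1 nM, with Kpna6 at −0.16, Clic1 at 0.00, Cct2 at −0.08, Bcl2l2 at −0.14, Arpc5 at −0.11 and Nox4 at −0.21. Bcl2l2 was called lower in D5 at 10 against 0.1 nM (−0.36, adjusted p = 0.0135, edgeR). These 8 genes were chosen after their values were seen, and a relation to the position of the GNA was not tested.

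D5, D6 and D1 were each compared with D4 directly at 1 nM, which makes 3 pairs that share the D4 libraries, with p-values adjusted over the genes tested in each pair. Adjusted over the genes of all 3 pairs together, the calls were 64 for D5, 23 for D6 and 251 for D1, and they held all the genes called for D5 and D6 below. D4 minus D5, the parent minus GNA-G, gave 37 called genes of 11066 (0.334%), 32 lower (0.289%) and 5 higher (0.0452%) with D4. All 37 were called in the same direction against mock, in a comparison with the same D4 libraries. The difference was −1.03 (95% interval −1.19 to −0.87, adjusted p = 6.49e-08, edgeR) for Kpna6 and −1.01 (−1.33 to −0.69, adjusted p = 1.21e-03) for Ccne1. It was −0.97 (−1.19 to −0.74, adjusted p = 3.21e-05) for Tgfbr1, −0.64 (−0.83 to −0.45, adjusted p = 4.64e-04) for Bcl2l2 and −0.48 (−0.59 to −0.37, adjusted p = 3.21e-05) for Uhmk1. Among the increases it was 1.58 (1.14 to 2.01, adjusted p = 2.50e-04) for Itgb4 and 0.36 (0.20 to 0.52, adjusted p = 0.0478) for Cdh1. Otud4, at 0.22 (0.02 to 0.41, adjusted p = 0.655), and Cnot6, at 0.12 (−0.01 to 0.25, adjusted p = 0.767), were not called between D4 and D5.

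D4 minus D6, the parent minus GNA-isoG, gave 6 called genes of 11075 (0.0542%), 3 in each direction (0.0271%), with 683 at an unadjusted p under 0.05. Clic1 was lower with D4 by −0.50 (95% interval −0.62 to −0.37, adjusted p = 1.67e-05, edgeR), and D6 left it at −0.06 against mock. Kpna6 was lower by −0.40 (−0.56 to −0.25, adjusted p = 0.0102) and Cyp2c70 by −0.47 (adjusted p = 1.06e-04). Itgb4 was higher with D4 by 0.98 (0.63 to 1.33, adjusted p = 4.52e-03). The other genes higher with D4 than with D6, Top2a (0.45) and Sdc4 (0.51), were not called for D4 against mock (0.06, adjusted p = 0.84, and −0.04, adjusted p = 0.86). For Ghr the difference was −0.01 (−0.17 to 0.14), for Uhmk1 −0.11 (−0.25 to 0.04) and for Ccne1 0.12 (−0.24 to 0.48), while for Tgfbr1 (−0.28, −0.55 to −0.02) and Bcl2l2 (−0.35, −0.53 to −0.17, adjusted p = 0.198) the unadjusted intervals excluded 0 but the genes were not called. Adjusted over the 3 pairs, Bcl2l2 was called (adjusted p = 0.039) and Tgfbr1 was not (adjusted p = 0.495). Ttr was too low in both groups to be tested. D4 minus D1, which differ in sequence and target, gave 372 called genes of 11049 (3.37%), 174 lower (1.57%) and 198 higher (1.79%). A D4 seed match was held by 65 of the 174 lower genes and 30 of the 198 higher ones, beside 20.3% of the genes tested against mock. Of these 372 genes 241 were not called for D4 against mock. The 111 genes called higher against mock had a median of 0.20 in D4 minus D5, 0.10 in D4 minus D6 and 0.27 in D4 minus D1. For the 121 lower genes other than Ttr, as far as tested, the medians were −0.32, −0.15 and −0.32 in the same order. Both sets were chosen with the same D4 libraries.

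Single libraries moved these counts. Without 1 library, D4 minus D5 gave 21 to 73 called genes (21 without D5 replicate 4, 22 without D4 replicate 2, 23 without D4 replicate 1 and 73 without D5 replicate 2). D4 minus D6 gave 3 to 16 (3 without D4 replicate 1 or D6 replicate 3, 10 without D6 replicate 1 and 16 without D4 replicate 4). D4 minus D1 gave 235 to 429, the lowest without D1 replicate 1.

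**Figure D5:**
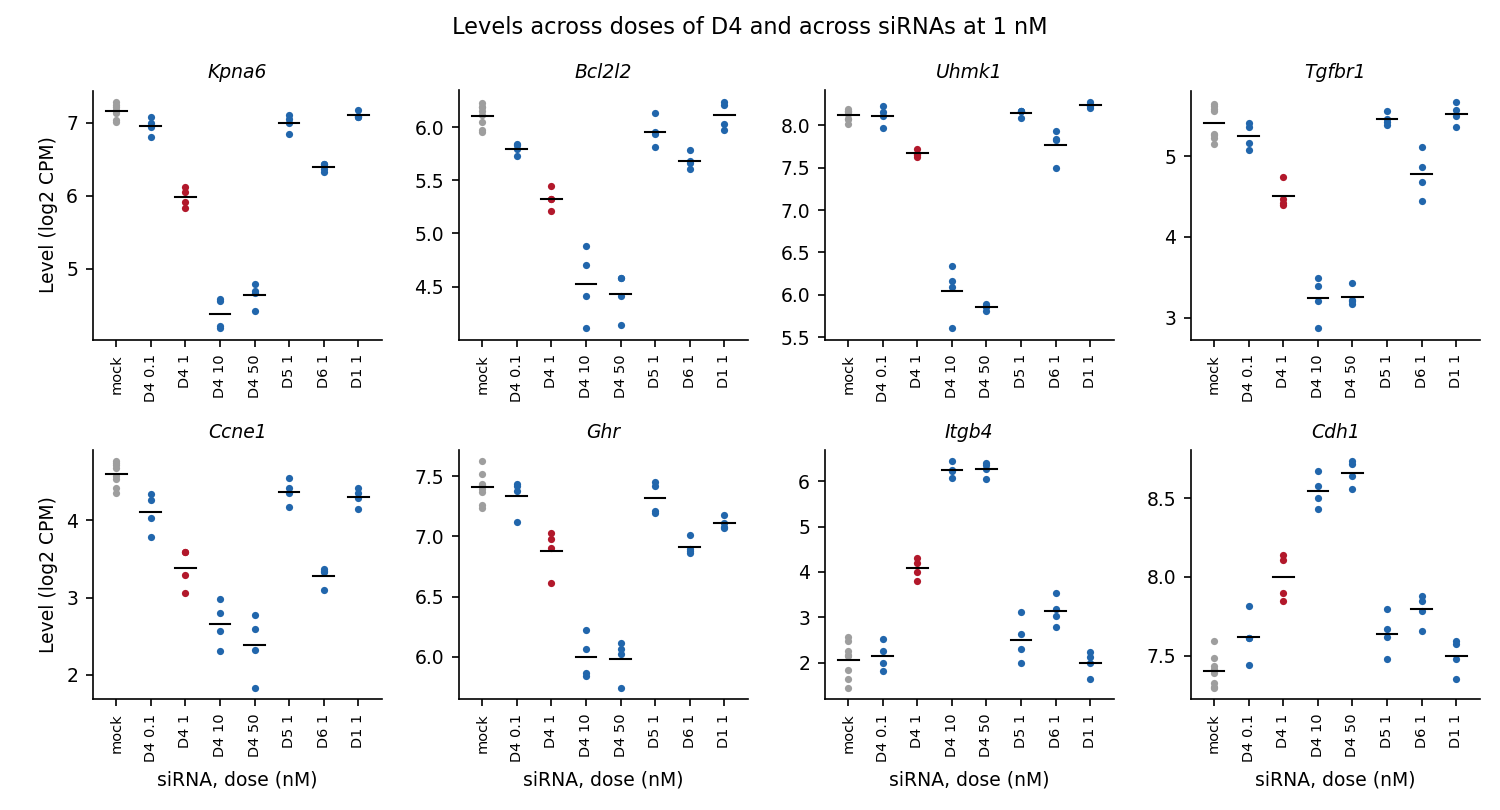
Log2 CPM of each library (points) and the group mean (black line) for 8 genes in mock, in D4 at 0.1, 1, 10 and 50 nM and in D5, D6 and D1 at 1 nM. For Kpna6, Uhmk1 and Tgfbr1 the points of D4 fall from 0.1 to 10 nM, those of D5 and D1 at 1 nM lie near mock, and those of D6 lie between mock and D4 at 1 nM for Kpna6.

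Libraries outside the comparison of D4 at 1 nM with mock allowed the genes called in it to be followed in samples that did not choose them. These were 10 nM against 0.1 nM of each siRNA, and the D4 libraries among them also entered comparisons given earlier. In D4 at 10 against 0.1 nM, where 11.2% of genes were called lower, 106 of the 120 lower genes other than Ttr that could be tested were again lower (88.3%, or 8.51% of all genes lower there), with a median log2 fold change of −0.89. All 22 mer8 genes, all 12 mer7m8 genes and 19 of 21 mer7A1 genes were lower there, as were 53 of 65 without a seed match (81.5%). Of the 111 higher genes 60 were again higher (54.1%, or 7.01% of those higher there) against 7.67% of all genes, and none was lower. Kpna6 reached −2.58 (adjusted p = 9.38e-14, edgeR), Clic1 −1.84 (adjusted p = 3.76e-13) and Itgb4 4.18 (adjusted p = 7.60e-15).

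With D6, 10 against 0.1 nM gave 90 of 120 genes lower again (75%, or 8.06% of those lower there; 10% of all genes tested), with 48 of 55 genes with a seed match and 42 of 65 without one. Of the higher genes 69 of 111 were higher again (62.2%, or 7.59% of those higher there) against 8.15% of all genes, and 2 were lower. Clic1 was at −0.14 (adjusted p = 0.0915, edgeR) in this series, whereas Kpna6 was at −1.89 (adjusted p = 7.57e-20).

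With D5, 6 of 121 genes were lower again (4.96%, or 5.56% of those lower there) where 0.975% of all genes were called lower, and 6 went the other way. The 6 included Otud4 at −0.99 (adjusted p = 6.21e-10, edgeR), Cnot6 at −0.49 (adjusted p = 5.89e-05), Tgfbr1 at −0.47 (adjusted p = 7.27e-03) and Bcl2l2 at −0.36 (adjusted p = 0.0135). Of the higher genes 19 of 109 were again higher (17.4%, or 10.3% of those higher there) against 1.67% of all genes, among them Itgb4 at 1.12 (adjusted p = 2.17e-03), Cdcp1 at 0.56 (adjusted p = 4.24e-03) and Cdh1 at 0.40 (adjusted p = 7.63e-04).

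With D1, whose guide has another sequence, 12 of 121 genes were lower (9.92%, or 1.35% of those lower there) where 8.02% of all genes were, and 18 were higher. Of the genes higher with D4 22 of 108 were higher with D1 (20.4%, or 3.23% of those higher there) against 6.15% of all genes, and 16 were lower. Arpc5, at 0.32 (adjusted p = 2.98e-03, edgeR), and Nox4, at 0.76 (adjusted p = 0.0141), were among those that went the other way.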

How the data were processed

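RNA of transfected primary mouse hepatocytes was bead-purified, prepared with a stranded total RNA kit and sequenced in 2 runs per library. Per the paper's methods and the submitters' processing notes, reads were filtered with fastq-mcf and mapped with STAR (build GRCm39), and the authors deposited featureCounts 2.0.2 raw counts, which hold unique alignments above a mapping quality and are not normalized. The authors also deposited DESeq2 1.32.0 tables with log2 fold changes, standard errors, test statistics and p-values for each siRNA and dose against mock. Of these only the symbol column was used.

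Samples were grouped by the treatment label. The counts of both runs were added for each of 55416 genes, and 92 ERCC spike-in rows (0.453 to 0.884% of counts in the 12 libraries) were left out. Runs of a library differed by little more than counting noise (chi-square per degree of freedom 1.01 to 1.05), replicates by more (at least 1.67). The quasi-likelihood test of edgeR 4.0.16 (R 4.3.3) was run on genes passing filterByExpr, with TMM factors, robust dispersions, no covariates, only the groups compared and Benjamini-Hochberg adjustment. The script was tested on simulated data. Levels are log2 CPM with a prior count of 2. Depth limits the precision of genes of few counts, and intervals cover the spread between these libraries. Seed matches and contiguous pairing were searched in GENCODE vM39 transcripts of GRCm39, taking the longest 3′-UTR of each gene.

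The named genes were Ttr, Hao1 and Gapdh, the 12 largest called decreases and increases with no overlap between groups and a mean of 2 log2 CPM or more in the higher group, the 8 called mer8 genes with the smallest p and up to 4 called genes per list. 1 gene that the rule names is not reported here. Genes with long pairing were chosen after their values were seen. The comparison, the gene lists and the tests were chosen with earlier results of these data known. Alternatives were DESeq2 1.42.0 with a beta prior, its size factors (RLE), 1 fit of all 25 groups, no filter on low counts, a replicate block, each run alone, other 3′-UTR choices and leaving out each library. Same-numbered D4 and mock libraries were not treated as paired, and the labels do not say what the number stands for.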

Additional observations from a re-analysis of the deposited data

Results flagged for a closer look

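In groups of 4 to 10 libraries, a library was flagged when its gap to the nearest other library, divided by the range of the group, passed Dixon's 95% critical value. Over 55 named genes in D4 at 1 nM and mock, 6 of 110 groups were flagged, where chance gives about 1 in 20. With D4, replicate 2 was apart at the top for Tgfbr1 (4.75 log2 CPM, nearest library 4.46, ratio 0.857) and for Otud4 (6.85, nearest 6.72, ratio 0.847), and replicate 4 at the bottom for F5 (6.75, nearest 6.87, ratio 0.845). For Tgfbr1 and Otud4 the library apart lay nearest to mock, and both genes were called without it. In mock, replicate 5 was lowest for Rab11fip4 (−0.25 log2 CPM, nearest 0.65, ratio 0.575), replicate 3 for Btg2 (6.38, nearest 6.65, ratio 0.568) and replicate 4 for Ctsd (8.76, nearest 8.98, ratio 0.551).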

How the results depend on the processing

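The main count of 233 genes called against mock became 251 with DESeq2 (212 shared), 238 with RLE size factors (232 shared), 177 with all 25 groups in one fit (159), 306 with all genes of at least 1 count (223), 170 and 160 with run 1 or run 2 alone (140 and 139), and 427 with the replicate block (195 shared). None of the 233 genes changed sign under these settings. In the replicate block, mock replicates 5 to 8 had no D4 library of the same number, so they added nothing to the D4 difference. Same-numbered D4 and mock libraries deviated together with a mean correlation of 0.03 (−0.004 to 0.099), differently numbered ones with −0.004, and the main test did not pair them. The labels do not say what a shared number stands for, and such weak correlations cannot exclude a shared plate or batch. For D4 and D1 the same-numbered libraries gave 0.061 to 0.156 (mean 0.105) and differently numbered ones −0.035 on average (at most 0.07), and 7 of 8 libraries were closest to their own number. Since the correlation of not every pair was over 0.1, D1 and D4 were not treated as paired. The replicate block also moved D4 against D6 from 6 to 10 genes, D4 against D1 from 372 to 613, and the genes higher again at 10 against 0.1 nM from 60 to 100 with D4, from 19 to 34 with D5 and from 22 to 41 with D1, and those lower again with D1 from 12 to 22. With all genes of at least 1 count, D4 against D5 gave 96 genes (main 37), D4 against D6 21, and 10 lower (main 6) and 30 higher (main 19) genes were called again with D5. The median of mer8 minus unmatched genes was −0.037 with edgeR and −0.0051 with DESeq2, whose beta prior shrinks fold changes toward 0. For the canonical 3′-UTR, an alternative chosen after seeing the data, it was −0.0445 with 47 seed-matched lower genes (main 55), and for any annotated 3′-UTR −0.0265 with 59.

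Without 1 library each, the results ran as follows, the cause not being tested: genes called against mock 140 to 296, against D4 at 0.1 nM 18 to 54, against D5 21 to 73, against D6 3 to 16 and against D1 235 to 429, and, added after seeing the data, against mock 3 to 7 with D5, 111 to 342 with D6 and 37 to 84 with D1, Ttr −8.48 to −7.69, seed-matched lower genes 37 to 57, mer8 minus unmatched −0.042 to −0.0261, and, with Ttr counted, genes lower again at 10 against 0.1 nM 72 to 114 with D4 (main 107), 63 to 100 with D6 (91), 5 to 8 with D5 and 9 to 15 with D1, and genes higher again 45 to 75, 44 to 80, 12 to 24 and 13 to 25, respectively. The lowest were 44 with D6 and 14 with D1 without D4 at 1 nM replicate 1, 12 with D5 without D5 at 10 nM replicate 3 and 13 with D1 without D1 at 0.1 nM replicate 3. Against D4 at 0.1 nM, 23, 31 and 26 genes were called without D4 at 1 nM replicates 1, 2 and 3, and 27 without D4 at 0.1 nM replicate 3. Gapdh changed sign, at 0.0037 with the replicate block and 0.0012 without D4 replicate 2 (range without 1 library −0.0317 to 0.0012), and was not called in either. Among the named genes, 108 of 648 fits without 1 library lost a call. With all 25 groups in one fit 12 named genes lost theirs (Btg2, Cpb2, Cth, Ctsd, Ctsz, Ephx1, F5, Lrp6, Ltbp3, Snhg11, Steap4 and Xiap), with the replicate block 6 (Cth, Fgg, Foxo3, Lrp6, Psrc1 and Snhg11) and with all genes of at least 1 count 3 (Foxo3, Lrp6 and Ltbp3). Run 1 alone lost 10 (Btg2, Ccne2, Cpb2, Cth, Foxo3, Lox, Lrp6, Nox4, Psrc1 and Xirp2) and run 2 alone 12 (Btg2, Ccnd3, Ctsd, Ctsz, Fgg, Foxo3, Gclc, Lrp6, Ltbp3, Plk2, Snhg11 and Steap4).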
